A study of Saccharomyces cerevisiae with 15 samples.

Results

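The 25MelH condition combines the higher melatonin dose of the study with oxidative stress, and its 3 arrays were compared with the 3 Control arrays, 6 of the 15 arrays of the series. The arrays were chosen by their titles alone, and no measured value entered the choice. All cultures were of QA23, a commercial wine strain of *S. cerevisiae*, growing in shaken YPD broth at 28 °C. The 25MelH cells had 25 μM melatonin in the medium during growth and then 2 mM H2O2 for 1 h from exponential phase, and the Control cells had 0 μM melatonin and 0 mM H2O2 over the same hour. Each array held the Cy3-labelled total RNA of 1 culture, and the study calls the 3 cultures of a condition biological replicates. Both additions differ between the groups, and the series has no array with 25 μM melatonin without stress, so that the effects of melatonin and of H2O2 cannot be told apart in 25MelH vs. Control. For that reason the values of H vs. Control (2 mM H2O2 alone) and MelH vs. Control (5 μM melatonin and 2 mM H2O2) are given beside it. All these comparisons share the same Control arrays.

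H2O2 oxidizes the thiols of cysteine residues and releases iron from iron-sulfur clusters. Yeast cells answer through the transcription factors Yap1 and Skn7, which switch on the thioredoxin and glutathione systems, and through Msn2 and Msn4, which drive a general program of stress protection. Melatonin is an indolamine made from tryptophan that yeast cells can form and take up and that can scavenge radicals.

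Levels were measured as log2 signal minus the 75th percentile of the array, so that a level of 0 is that percentile, and each log2 change is the 25MelH mean minus the Control mean, given with its standard error (SE, 3 arrays against 3). Of 6224 genes, 4081 (65.6%) passed an adjusted p of 0.05 in limma. Of these, 1658 (26.6% of all genes) were higher and 2423 (38.9%) lower in 25MelH. Most changes were small, since 131 of the genes called higher and 642 of those called lower changed more than 2-fold. Only 24 genes called higher but 114 called lower changed more than 4-fold, and 1 against 27 more than 8-fold. The 2 groups did not overlap for 4470 genes (71.8%), among them 4065 of those called. On its own arrays H vs. Control gave 4253 called genes (68.3%) and MelH vs. Control 3871 (62.2%).

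The signal at the 75th percentile was between 2252 and 3018 intensity units on the 25MelH arrays and between 4193 and 5905 on the Control arrays, and 86.8% to 91.2% against 89.5% to 95.3% of genes were well above background. The spike-in control probes lay 0.98 to 1.45 above the 75th percentile on the 25MelH arrays and 0.28 to 0.37 below it on the Control arrays, on the log2 scale. Scaled to these probes, the median change of all genes moved from −0.08 to −1.65, and 23 genes were called higher and 6054 lower. Centring each array on its median moved that median to 0.19 with 2737 genes higher and 1545 lower, and quantile normalization to 0.07 with 2140 higher and 1748 lower. Relative to these shifts in the median, quantile normalization turned the median sign of 4 of the 28 lists and role groups described here. These were cytosolic ribosomal proteins, glycolysis, the sulfur pathway and the nuclear-encoded subunits of complex V. It also turned 11 of the 194 called genes named here. Median centring and spike-in scaling move all genes of an array by the same amount. Relative to the shift they therefore cannot turn these signs, and they are no test of them. As fitted, spike-in scaling left 0 of the 28 medians above 0 and gave 62 of the 194 genes the other sign. Rises and falls given here are therefore relative to the 75th percentile of each array. The study isolated RNA from a set number of cells per condition, and the cause of the shift against the spike-in probes was not tested. Both groups had 2 arrays on slide 1 and 1 on slide 2, and all arrays were scanned on 1 day. Within slide 1, 3559 genes were called, and within slide 2, with 1 array of each group and the spread taken from the other conditions, 1122. The 266 genes that were not well above background on any of the 6 arrays had a median change of 0.64, with 25 called higher and 0 lower, and no direction is drawn from such genes.

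**Figure D1:**
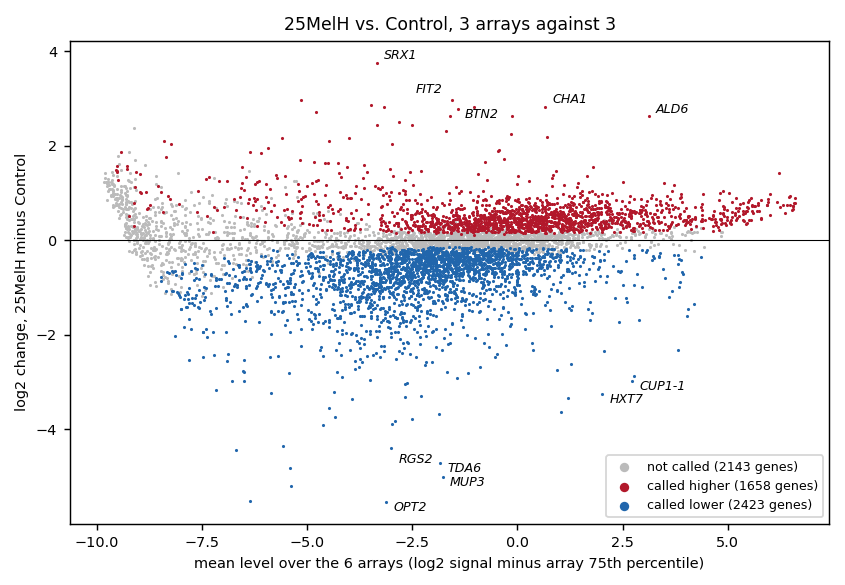
Log2 change of each of 6224 genes in 25MelH vs. Control (vertical axis) against its mean level over the 6 arrays (horizontal axis, log2 signal minus the 75th percentile of the array), with red for 1658 genes called higher and blue for 2423 called lower. The falls reach further than the rises, down to −5.53 for OPT2 against 3.76 for SRX1, relative to each array's 75th percentile.

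The largest rise was that of *SRX1*, which encodes sulfiredoxin, the enzyme that repairs overoxidized peroxiredoxins. Its level was −1.50, −1.56 and −1.33 on the 25MelH arrays and −5.49, −4.83 and −5.35 on the Control arrays. The groups lay far apart, and the change of 3.76 (SE 0.18, adjusted p = 2.55e-05 in limma) corresponds to 13.6-fold. Several of the next largest rises belonged to iron and copper uptake. *FIT2*, a cell wall mannoprotein that helps to retain siderophore-bound iron, stood at −0.17, −0.26 and 0.22 in 25MelH and at −2.66, −3.10 and −3.34 in Control. *SIT1*, a siderophore transporter, stood at 0.43, 0.26 and 0.42 against −2.34, −2.47 and −2.53. The changes were 2.96 (SE 0.21) for *FIT2* and 2.81 (SE 0.08) for *SIT1*. *CTR3*, a copper transporter of the plasma membrane, had levels of 1.34, 1.18 and 1.05 against −1.75, −1.10 and −1.50, a rise of 2.64. *CHA1*, the deaminase that breaks down serine and threonine, had levels of 2.16, 2.05 and 2.00 against −0.90, −0.71 and −0.65, a rise of 2.83. The remaining genes among the 10 largest rises of genes well above background on all 6 arrays were *FRE4* (a ferric reductase, 2.86), *TIS11* (an RNA-binding protein that destabilizes mRNAs when iron is short, 2.82), *BTN2* (a factor that sorts misfolded proteins, 2.78), *CIS1* (2.72) and *HMX1* (heme oxygenase, 2.64). The 10 were drawn from called genes whose groups did not overlap, and their adjusted p in limma lay between 6.67e-06 (*SIT1*) and 8.82e-05 (*FIT2*).

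The 10 largest falls, drawn in the same way from called genes without overlap and well above background on all 6 arrays, were steeper than the 10 largest rises. Transporters headed these falls. *OPT2*, an oligopeptide transporter, had levels of −5.89, −5.77 and −5.99 on the 25MelH arrays and −0.47, −0.38 and −0.21 on the Control arrays. The difference of −5.53 (SE 0.09, adjusted p = 2.07e-06) is 46.3-fold. *MUP3*, a low-affinity methionine permease, had levels of −4.32, −4.16 and −4.35 against 0.80, 0.86 and 0.55, a 32.2-fold fall. *RGS2*, a regulator of the glucose-sensing G protein, stood at −5.21, −5.19 and −5.19 against −0.88, −0.79 and −0.70 and fell 21.2-fold. For these 3 genes the spread within a group was small beside the distance between groups. *GLG1*, glycogenin, the primer of glycogen synthesis, had levels of −4.82, −4.78 and −4.85 against −0.90, −1.02 and −1.06, a change of −3.82. *SER3*, the first enzyme of serine synthesis from glycolysis, stood at −0.63, −0.76 and −0.98 against 2.86, 2.77 and 2.92, a change of −3.64. The other 5 were *TDA6* (−4.71), *GAT2* (a GATA-type zinc finger protein, −3.88), *IZH4* (a membrane protein of zinc homeostasis, −3.79), *ADH5* (an alcohol dehydrogenase isozyme, −3.69) and *BNA2* (the first enzyme of NAD synthesis from tryptophan, −3.35).

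**Figure D2:**
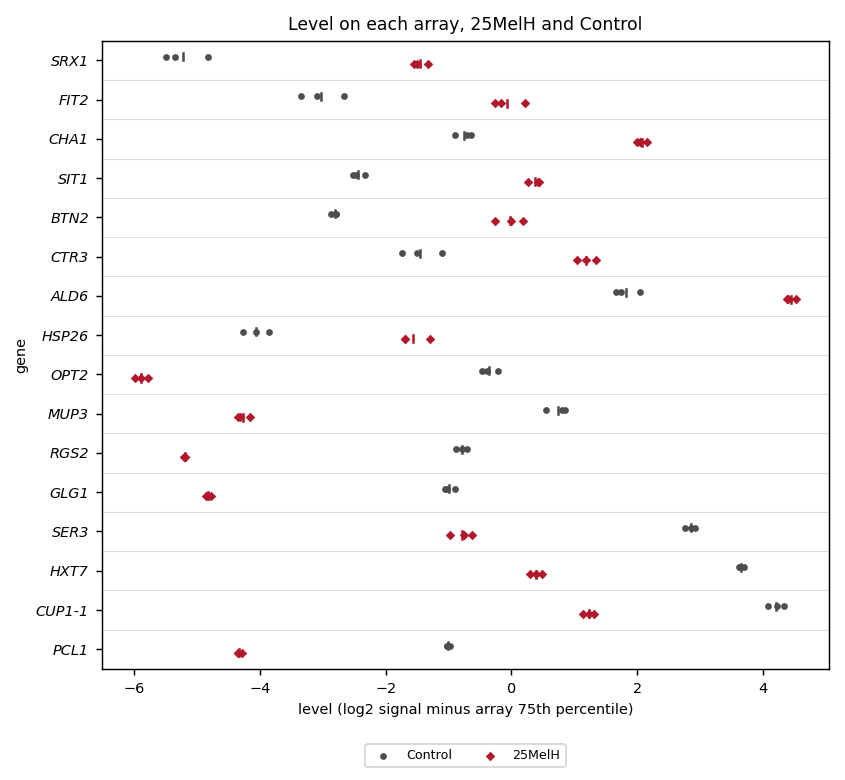
Level of 16 genes on each array (horizontal axis, log2 signal minus the 75th percentile of the array), with grey circles for the 3 Control arrays, red diamonds for the 3 25MelH arrays and a bar for each mean. The genes shown were picked for large changes, and the groups are apart for every one of them. For SRX1 the 25MelH arrays sit between −1.56 and −1.33 and the Control arrays between −5.49 and −4.83.

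A few genes could be given only as bounds because no 25MelH array measured them well above background. *SPO19*, a prospore membrane protein, was at least 5.56-fold lower than in Control, and *ZAP1*, the transcription factor of the zinc regulon, at least 3.54-fold lower. *SET4* was at least 3.78-fold lower, and the mitochondrial open reading frame Q0182.1 at least 10.2-fold. In these bounds each 25MelH array was given the dimmest signal counted as well above background there, or the measured signal where that was higher. Among the called genes 85 were not well above background on any 25MelH array while measured in Control, and 2 the other way round.

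Most genes of the thioredoxin and glutaredoxin systems rose. Of 21 peroxiredoxins, thioredoxins and glutaredoxins, 14 were higher and 2 lower, with a median change of 0.35 against −0.08 over all genes. *TSA1*, the main cytosolic peroxiredoxin, had levels of 5.60, 5.42 and 5.62 against 4.59, 4.60 and 4.41, and its groups did not overlap. *TRX2*, a cytosolic thioredoxin, had levels of 4.08, 4.04 and 4.20 against 3.04, 2.90 and 2.73. These are rises of 1.01 and 1.22, while *AHP1*, a further peroxiredoxin, rose by 1.42, *MXR1*, methionine sulfoxide reductase, by 1.28, and *TRR1*, thioredoxin reductase, by 0.81. The members that fell were *GRX4* (−1.18), a monothiol glutaredoxin that takes part in iron sensing, and *DOT5* (−0.30), a nuclear peroxiredoxin. Among 17 glutathione genes 7 were higher and 4 lower, led by *GPX2* (a glutathione peroxidase, 1.90), with *GSH1*, the first enzyme of glutathione synthesis, at 0.62 and *GLR1*, glutathione reductase, at 0.53. *OPT1*, a transporter that carries glutathione, fell by 1.34. The superoxide dismutases *SOD1* (1.00) and *SOD2* (0.88), the copper chaperone *CCS1* (0.81) and cytochrome c peroxidase *CCP1* (0.62) rose. The catalases did not pass the test, with *CTT1*, the cytosolic enzyme, at 0.09 (adjusted p = 0.45) and *CTA1*, the peroxisomal one, at 0.00. Cytosolic catalase had levels of −3.29, −3.19 and −3.00 in 25MelH and −3.14, −3.32 and −3.27 in Control, so the groups overlapped. Beside these enzymes, *OYE3*, an old yellow enzyme, rose by 2.16, whereas *AAD10*, of the aryl alcohol dehydrogenase family, fell by 2.58 and *ATR1*, a multidrug efflux pump, fell by 2.91.

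Chaperones and the proteasome rose together. Of 29 heat shock proteins and chaperones, 24 were higher and 2 lower, with a median of 0.75. *HSP26*, a small heat shock protein that binds unfolded proteins, had levels of −1.70, −1.69 and −1.30 against −3.86, −4.28 and −4.07, a rise of 2.51 between groups that did not overlap. *HSP82*, the inducible Hsp90, had levels of 2.66, 2.60 and 2.45 against 0.80, 0.94 and 1.29, and its co-chaperones *STI1* and *CPR6* rose by 1.47 and 1.23. The members that fell were *SSA3* (−0.60) and *SSE2* (−0.42), both stress-inducible relatives of Hsp70. *SSA1* (1.18) shares most of its sequence with *SSA2*, so signal on its probe may come from both. Of 32 proteasome subunits, 29 were higher and 0 lower, in a narrow range from 0.07 to 0.89 with a median of 0.43. *RPN4*, the transcription factor of the proteasome genes, was 0.26 higher (adjusted p = 0.04). The polyubiquitin gene *UBI4* did not pass, with 0.14.

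The general stress genes went in both directions. Of 25 targets of Msn2 and Msn4, 4 were higher and 12 lower, and their median was −0.22. The counts leaned on the scaling, with 8 higher and 7 lower under median centring, 9 and 8 under quantile normalization and 10 and 8 under normexp background correction without 6 aberrant spots. The 4 were *DDR2* (2.10), *HSP12* (a membrane-associated small heat shock protein, 1.85, below background on 1 Control array), *TMA10* (1.45) and *GRE1* (a hydrophilin, 0.97). *DDR2* had levels of −3.51, −3.44 and −3.30 in 25MelH and −5.02, −5.49 and −6.04 in Control. Its groups did not overlap, although its Control arrays spread over more than a unit. Among the members that fell were *XBP1*, a transcriptional repressor (−2.54), *GPH1*, glycogen phosphorylase (−1.49), and *GAD1*, glutamate decarboxylase (−1.01). *XBP1* was well above background on only 1 of the 25MelH arrays. The storage carbohydrates went the same way, with 4 of 7 trehalose genes lower and 0 higher (3 and 3 under median centring) and 11 of 16 glycogen genes lower and 1 higher. *TSL1*, the regulatory subunit of trehalose synthase, had levels of −4.83, −4.94 and −4.91 against −2.91, −2.85 and −2.49, a fall of 2.14. *TPS1*, the synthase itself, fell by 0.49, and the neutral trehalase genes *NTH1* (0.09) and *NTH2* (0.14) did not pass. The median of the glycogen genes was −1.22, with glycogen synthases *GSY1* at −2.17 and *GSY2* at −1.61 and the branching enzyme *GLC3* at −1.72, and the member that rose was *PGM1*, phosphoglucomutase (0.64).

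Regulators of these programs moved in both directions. Of 23 stress regulators, 4 were higher and 10 lower, beside 26.6% and 38.9% of all genes. Under median centring 11 were higher and 7 lower, and under quantile normalization 10 and 5. *CIN5*, a Yap family factor, had levels of −3.88, −3.74 and −3.42 against −5.29, −5.33 and −5.30 and rose by 1.63. *MSN4* stood at −4.19, −4.14 and −4.13 against −1.88, −1.55 and −1.47 and fell by 2.52, with *MSN2* at −0.81 and *SKN7* at −1.70. For each of these 4 the groups did not overlap. The mRNA of *YAP1* did not pass the test (0.13, adjusted p = 0.13), nor did that of the heat shock factor *HSF1* (0.15). *YAP1* had levels of 0.56, 0.55 and 0.71 against 0.47, 0.40 and 0.55, which lie close together.

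Genes of metal uptake and storage moved in both directions. Of 27 iron regulon genes, 17 were higher and 6 lower, with a median of 0.54. It became 0.79 without 25MelH replicate 3 and 0.82 without Control replicate 2. This median was the value of *BIO5*, which was not called (SE 0.72, adjusted p = 0.53 in limma). Besides the 5 named among the largest rises, the siderophore transporter *ARN1* (2.32), the reductase *FRE1* (2.19) and the mannoproteins *FIT3* (1.92) and *FIT1* (1.55) rose. *FRE1* had levels of 1.84, 1.73 and 1.84 against −0.32, −0.20 and −0.65, with no overlap. The reductases *FRE2* (−0.80), *FRE3* (−0.30, but 0.12 under quantile normalization) and *FRE6* (−1.12, of the vacuole) fell, as did *SMF3* (−0.41), which exports iron from the vacuole. *AFT1*, the main iron-responsive transcription factor, did not pass (−0.11), and *AFT2*, its relative, was 0.36 higher. Of 11 copper genes 4 were higher and 6 lower, beside 26.6% and 38.9% of all genes. The plasma membrane transporters *CTR3* (2.64) and *CTR1* (1.32) were among those that rose, and the metallothioneins *CUP1-1* (−2.98), *CUP1-2* (−2.87) and *CRS5* (−1.15) among those that fell. *CUP1-1* had levels of 1.14, 1.23 and 1.31 against 4.22, 4.07 and 4.34, with the groups far apart. The CUP1 copies are near-identical, so their probes cannot be taken as separate measurements. The copper-sensing activators of these opposite programs were both lower, *MAC1* by 1.19 on the log2 scale (−1.19) and *CUP2* at −0.24. The zinc regulon moved one way, with 11 of 12 genes lower and 0 higher and a median of −1.23. *ZRT1*, the high-affinity zinc transporter, had levels of −2.17, −2.09 and −2.05 against −0.17, −0.58 and −0.87, a fall of 1.56. *IZH1* (−2.47), *FET4* (a low-affinity metal transporter, −2.06) and *ZRT2* (−1.07) fell as well, and *ZRT3*, which releases zinc from the vacuole, did not pass (−0.04).

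Genes of the cytosolic translation apparatus rose in large numbers but by small amounts. Of 136 ribosomal protein genes of the cytosol, 105 were higher and 1 lower, with a median of 0.45. The count depended on the scaling, with 27 higher and 11 lower under quantile normalization. The median then became −0.09, relative to the shift of that scaling. Many of these genes exist as near-identical pairs whose probes may share signal. The largest rise among them was that of *RPL18B*, with levels of 1.42, 1.46 and 1.35 against 0.41, 0.27 and 0.10. The one that fell, *RPS28B*, had levels of 0.87, 0.96 and 0.78 against 2.36, 2.68 and 2.65, a change of −1.69 without overlap. Of 111 ribosome biogenesis factors 88 were higher and 4 lower (median 0.46), led by *NOP7* (0.95) and *ERB1* (0.93), which act in the maturation of the large subunit, while *NSR1*, a nucleolar protein, fell by 0.49. All 20 cytosolic tRNA synthetases were higher, from 0.23 (*TYS1*, tyrosyl, which turned to −0.14 under quantile normalization) to 0.85 (*KRS1*, lysyl). Of 37 translation factors, 29 were higher and 2 lower. The latter were *SUI1* (−1.22), which encodes the start codon selection factor eIF1, and *ANB1* (−0.53), the hypoxic form of eIF5A, whose aerobic counterpart *HYP2* rose by 0.84. The mitochondrial ribosome went the other way, as 59 of 71 genes were lower and 1, *MRP8* (0.44), was higher, with a median of −0.53 and a largest fall of 0.95 on the log2 scale for *MRPL22* (−0.95).

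In respiratory complexes III and IV the nuclear-encoded subunits used in aerobic growth and most assembly factors moved apart. All 9 nuclear-encoded subunits of complex III on the array rose, from 0.39 (*QCR2*) to 0.81 (*CYT1*, cytochrome c1), and all 4 assembly factors (*BCS1*, *CBP3*, *CBP4* and *CBP6*) fell, from −1.10 to −0.85. All 8 nuclear-encoded subunits of cytochrome c oxidase that are used in aerobic growth rose, from 0.28 (*COX5A*, which turned to −0.09 under quantile normalization) to 1.00 (*COX13*). Of 21 assembly factors of this complex, 16 fell and 1 rose, *PET100* (0.22), with a median of −0.62. *COX13* had levels of 2.71, 2.66 and 2.87 against 1.84, 1.76 and 1.63, without overlap. *COX10*, which makes heme A precursor for the enzyme, had levels of −3.97, −3.53 and −3.99 against −1.59, −1.79 and −1.82, and *SCO1*, which delivers copper to it, had −2.76, −2.82 and −2.75 against −0.76, −0.81 and −0.57. These are falls of 2.09 and 2.06 with no overlap. The hypoxic subunit isoform *COX5B* fell (−0.98) and the cytochrome c genes split in the same sense, with *CYC1* at 0.97 and its hypoxic isoform *CYC7* at −0.29, or 0.17 under quantile normalization. The mitochondrially encoded *COB* (−1.47), *COX2* (−0.88) and *COX3* (−0.75) fell, and *COX1* did not pass (−0.23, adjusted p = 0.08). In ATP synthase 7 of 14 nuclear-encoded subunits rose and 2 fell, with a median of 0.17 that became −0.08 under quantile normalization, and 4 of 6 assembly factors fell, led by *ATP23* (−2.17) and *ATP12* (−1.98). Of its mitochondrially encoded subunits *OLI1* rose (0.48, but −0.43 under quantile normalization) and *ATP8* fell (−0.94), while *ATP6* was not well above background on any array. Complex II, succinate dehydrogenase, had no such split. All 4 of its subunits fell, *SDH2* by the largest amount (−1.43), and of its 3 assembly factors 2 fell and 1 rose. This division by role was made after the values of the lists had been seen and is a description. The medians of the nuclear-encoded complex III subunits were 0.58 in 25MelH, 0.55 in H and 0.55 in MelH vs. Control, and those of the oxidase assembly factors −0.62, −0.58 and −0.60.

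**Figure D3:**
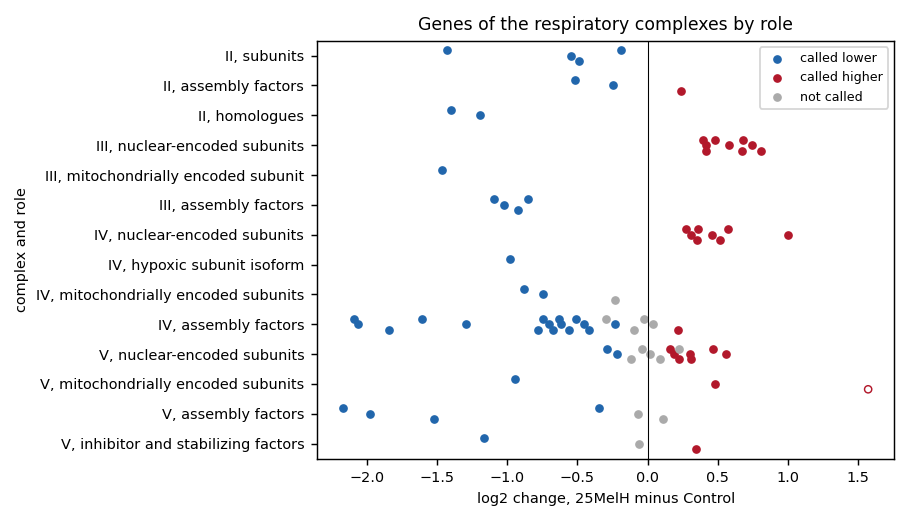
Log2 change in 25MelH vs. Control (horizontal axis) of each gene of respiratory complexes II to V, by complex and role (rows), with red for genes called higher, blue for genes called lower, grey for genes not called and an open circle for ATP6, which was below background on all arrays. Relative to each array's 75th percentile, all 9 nuclear-encoded subunits of complex III and all 8 of complex IV used in aerobic growth lie above 0. The hypoxic isoform COX5B of complex IV was called lower, as were 4 of 4 and 16 of 21 assembly factors of these complexes.

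Relative to each array's 75th percentile, most glycolysis genes rose and most permease genes for amino acids fell. Of 24 genes of glycolysis and fermentation 17 were higher and 5 lower, with a median of 0.53 that became −0.19 under quantile normalization, where 4 were higher and 6 lower. The pyruvate decarboxylase *PDC1* rose by 0.92, the aldolase *FBA1* by 0.90, *ADH1*, the main fermentative alcohol dehydrogenase, by 0.79 and the pyruvate kinase *CDC19* by 0.75. Under quantile normalization these became −0.01, −0.01, −0.15 and −0.19 relative to its shift. The members that fell were isozymes that have a more abundant or more used counterpart, namely *ADH5* (−3.69), *HXK1* (−2.25), *GLK1* (−1.35), *PYK2* (−0.56) and *ADH3* (−0.32). *HXK1*, hexokinase 1, had levels of −1.82, −1.84 and −1.75 against 0.31, 0.28 and 0.74, whereas *HXK2* rose by 0.22, or stood at −0.32 under quantile normalization. *ALD6*, the cytosolic aldehyde dehydrogenase that makes acetate and NADPH, had levels of 4.53, 4.39 and 4.40 against 1.66, 1.74 and 2.04. This rise of 2.62 had no overlap and was the largest of the 22 genes of gluconeogenesis, acetate and glycerol, of which 8 were higher and 11 lower (10 and 7 under median centring, 11 and 7 under quantile normalization), with *GPD1*, the first enzyme of glycerol synthesis, at −1.45. *ZWF1*, the entry enzyme of the pentose phosphate pathway, rose by 0.66. The high-affinity hexose transporters *HXT7* (−3.26) and *HXT6* (−3.35), which are near-identical and may share signal, fell most of the 21 genes of hexose transport and sensing, 10 of which were lower and 3 higher. Only 12 of the 21 were well above background on all 6 arrays, and normexp correction without the aberrant spots gave 10 higher and 9 lower with a median of 0.28 relative to its shift. *HXT7* had levels of 0.40, 0.48 and 0.29 against 3.62, 3.63 and 3.70. Of the 3 called higher, *HXT13* and *HXT16* were not well above background on all arrays, and *HXT2* rose by 0.44. Of 27 amino acid, peptide and ammonium permeases 17 were lower and 5 higher. Besides *OPT2* and *MUP3*, the ammonium transporters *MEP2* (−2.31) and *MEP3* (−2.06) and the general amino acid permease *GAP1* (−1.70) fell, and *GNP1*, a glutamine permease, rose by 1.36.

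Amino acid and nucleotide synthesis differed by pathway. Of 15 genes of serine, glycine and one-carbon metabolism, 11 were lower and 3 higher, with a median of −0.95. The glycine cleavage genes *GCV1* (−2.74), *GCV2* (−2.61) and *GCV3* (−1.46) and *MTD1*, of folate metabolism (−2.34), fell, and the cytosolic *SHM2* (−1.60) fell while its mitochondrial counterpart *SHM1* (0.34) rose. *GCV2* had levels of −0.15, 0.00 and 0.03 against 2.70, 2.46 and 2.56, with no overlap. Of 19 purine synthesis genes 12 were lower and 4 higher (median −0.42), for example *ADE17* (−1.35) and *ADE1* (−1.30). In the sulfur pathway 10 of 32 genes were higher and 12 lower, close to the 26.6% and 38.9% of all genes. Median centring gave 15 higher and 6 lower, and the list median was −0.03, or 0.07 under quantile normalization. *CYS3*, which forms cysteine from cystathionine, had levels of 4.36, 4.13 and 4.45 against 3.15, 3.21 and 3.09, a rise of 1.16, while *MET28* (−1.87) and *MET4* (−1.55), transcription factors of the pathway, the sulfate permease *SUL2* (−1.74) and the methionine synthase *MET6* (−1.45) fell.

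Sterol genes and oxygen-responsive genes moved apart. Of 30 ergosterol genes 21 were higher and 5 lower, with a median of 0.38. *HMG1*, the aerobic HMG-CoA reductase, had levels of 2.05, 2.01 and 2.11 against 0.98, 0.87 and 0.68, a rise of 1.21, and its hypoxic isoform *HMG2* fell by 0.36. Of 21 hypoxic genes 18 were lower and 1 higher, with a median of −0.68. The one that rose was *ROX1*, the repressor of hypoxic genes in aerobic cells, with levels of −1.35, −1.26 and −1.27 against −3.99, −3.65 and −3.53. The change was 2.43 (SE 0.12, adjusted p = 2.9e-05). *HEM13*, a heme synthesis gene of the hypoxic set, had levels of −0.67, −0.78 and −0.76 against 1.29, 1.24 and 1.79 and fell by 2.18. Both genes had groups that did not overlap.

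Several cyclin genes fell. Of 17 G1 cyclins and START genes 11 were lower and 1 higher, and of 21 genes of B-type cyclins and mitosis 12 were lower and 0 higher. Under median centring these counts became 8 lower and 4 higher, and 8 lower and 6 higher. *PCL1*, a G1 cyclin of the kinase Pho85, had levels of −4.35, −4.35 and −4.28 against −0.98, −1.03 and −1.03, a 9.94-fold fall. *CLN1*, a G1 cyclin, had levels of −2.30, −2.23 and −2.15 against 0.61, 0.40 and 0.32, and *CLB1*, a mitotic cyclin, −1.61, −1.70 and −1.75 against 0.61, 0.79 and 0.79. The groups of all 3 were apart, and *CLN2* (−0.59) and *CLB2* (−0.99) fell by less. DNA replication differed, with 16 of 33 genes higher and 3 lower, led by *POL2*, a polymerase subunit (0.84), and with *CDC6*, which loads the replicative helicase, at −2.09. Of 40 cell wall genes 22 were lower and 7 higher, beside 38.9% and 26.6% of all genes. Under median centring 17 were lower and 14 higher. Those that fell included the flocculin *FLO1* (−1.78, whose repeats are shared with other FLO genes) and the daughter-specific glucanase *SCW11* (−2.34). Of 22 autophagy genes 14 were lower and 5 higher, but 8 were lower and 6 higher under median centring and 7 lower and 8 higher under quantile normalization. The conjugation pair *ATG8* (0.86) and *ATG4* (−2.33), the protease that processes Atg8, went opposite ways. *ATG4* had levels of −5.45, −5.58 and −5.36 against −3.10, −3.25 and −3.06.

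**Figure D4:**
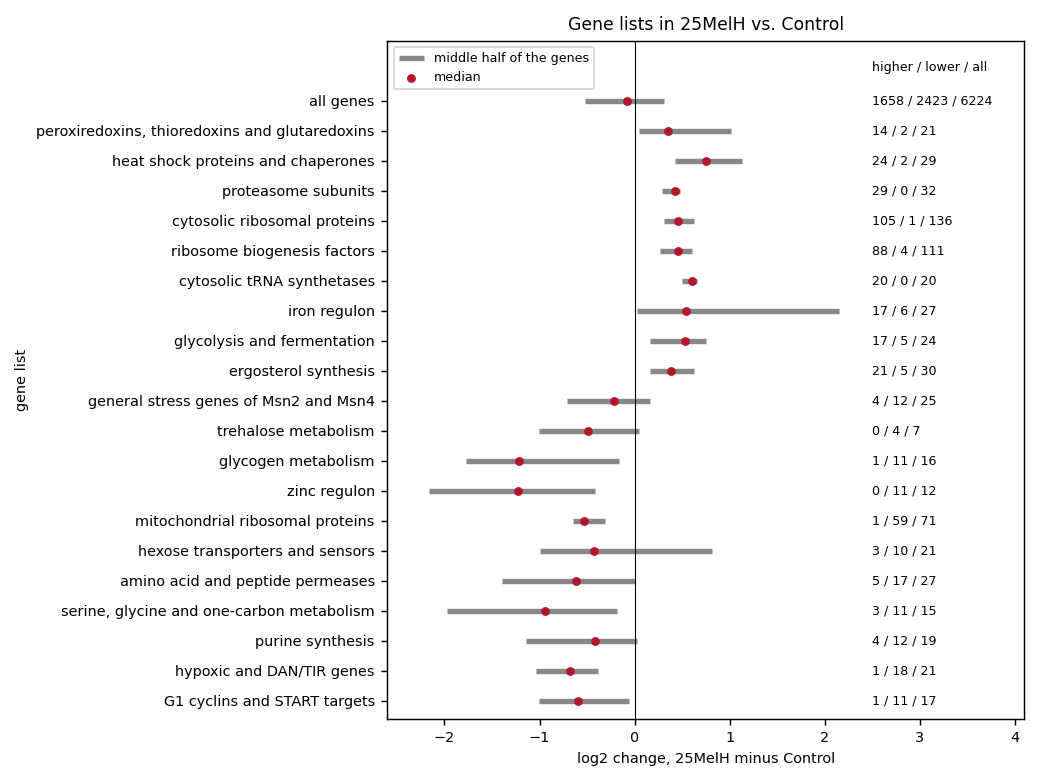
Median log2 change in 25MelH vs. Control (horizontal axis, red points) and range from the first to the third quartile (grey bars) for all genes and 20 gene lists (rows), with the numbers of genes called higher, called lower and measured at the right. Relative to each array's 75th percentile, chaperones (0.75) and tRNA synthetases (0.60) have the highest medians shown, and the zinc (−1.23) and glycogen (−1.22) lists the lowest. Quantile normalization turned the signs of 2 of the lists shown, glycolysis and the cytosolic ribosomal proteins.

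Whether the 25 μM melatonin cells differed from stressed cells with less or no melatonin was tested on the stressed arrays themselves. In 25MelH vs. H, 0 of 6224 genes (0%) passed in limma, the smallest adjusted p was 0.053, and 1003 genes (16.1%) had an unadjusted p under 0.05, of which 601 (9.66%) were higher and 402 (6.46%) lower in 25MelH. Fits within slide 1, which held 1 H array, and within slide 2, which held 1 25MelH array, took the spread from all conditions of the slide and also gave 0 calls, which says nothing on stability. In 25MelH vs. MelH, 0 genes (0%) passed and 82 (1.32%) had an unadjusted p under 0.05. A missed threshold with 3 arrays against 3 does not show that the groups were alike. A further fit of 25MelH vs. H kept only genes well above background on all 3 arrays of at least 1 of the groups. A gene dim in the other group could thus stay in. Of these 5403 genes 28 passed, 20 of them higher and 8 lower in 25MelH. Among the lower were *AEP2* (−0.38), *NOG2* (−0.36) and *MET4* (−0.32). The limma fit was rerun on the 5403 genes, and 1085 of them had an unadjusted p under 0.05. The p values thus changed as well as the number of genes tested.

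The gene with the smallest p in 25MelH vs. H was *SRX1*, which also had the largest rise over Control. Its level was −2.47, −2.41 and −2.34 in H and −1.59, −1.75 and −2.01 in MelH, beside −1.50, −1.56 and −1.33 in 25MelH. The 25MelH and H arrays did not overlap, with a difference of 0.94 (SE 0.07, adjusted p = 0.053 in limma), and every 25MelH array was also above every MelH array, with a difference of 0.32 (SE 0.12, adjusted p = 1.0). *DDR2* had levels of −4.36, −4.59 and −4.44 in H and −3.56, −3.54 and −4.08 in MelH, and 25MelH exceeded H by 1.04 (SE 0.08, adjusted p = 0.053). *EGO4* exceeded its level in H by 0.75 (SE 0.06, adjusted p = 0.053). These 3 genes passed when low-signal genes were left out, with adjusted p of 0.0026 for *SRX1* and *DDR2* and 0.0028 for *EGO4*. The next smallest p values were those of *ATG8* (0.46 above H, adjusted p = 0.085), *STF2*, a factor that stabilizes the inhibited ATP synthase (0.51, adjusted p = 0.085), and *GRE1* (0.40, adjusted p = 0.1). *STF2* had levels of −0.61, −0.58 and −0.53 in 25MelH, −1.10, −1.01 and −1.15 in H and −0.83, −0.98 and −0.95 in Control. It was thus 0.35 above Control in 25MelH, whereas its change in H vs. Control was −0.17.

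**Figure D5:**
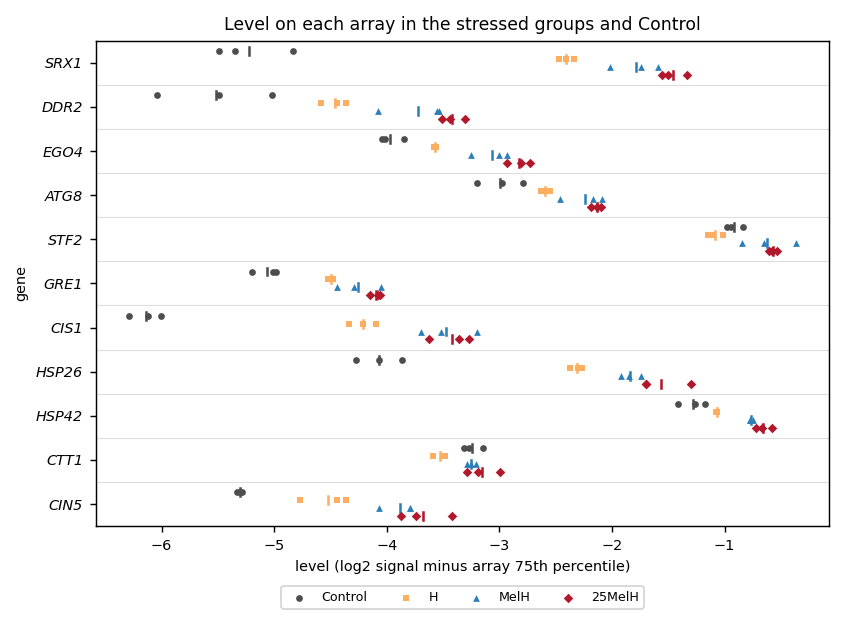
Level of 11 genes on each array (horizontal axis, log2 signal minus the 75th percentile of the array) in Control (grey circles), H (orange squares), MelH (blue triangles) and 25MelH (red diamonds), with a bar for each mean. The first 6 genes have the smallest p in 25MelH vs. H, and the other 5 were chosen after their values were seen. The 25MelH arrays lie above those of H for each, as for SRX1 at −1.56 to −1.33 against −2.47 to −2.34, but 0 genes passed the adjusted test.

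Further genes with larger values in 25MelH than in H, chosen after their values were seen, were *CIS1* (0.80, adjusted p = 0.17), *HSP26* (0.75, adjusted p = 0.17), *HSP42*, a small heat shock protein (0.41, adjusted p = 0.11), *CIN5* (0.84, adjusted p = 0.19) and *CTT1* (0.37, adjusted p = 0.2). By lists, 14 of the 25 general stress genes had an unadjusted p under 0.05 in 25MelH vs. H, all 14 of them higher, where 9.66% of all genes were higher by that rule. The same rule gave 9 of 21 peroxiredoxins, thioredoxins and glutaredoxins, 9 of 32 proteasome subunits and 30 of 136 cytosolic ribosomal proteins, all higher, but 1 of 20 tRNA synthetases and 1 of 16 glycogen genes. Other lists leaned lower, where 6.46% of all genes were lower by that rule. Of 21 genes of B-type cyclins and mitosis 5 were lower and 1 higher. Of 17 G1 cyclins and START genes 3 were lower and 1 higher, and of 12 zinc genes 3 and 1. The list medians in 25MelH vs. H were 0.22 for the general stress genes, 0.14 for the peroxiredoxin list and 0.11 for the ribosomal proteins, beside 0.02 for all genes.

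Against MelH, which had 5 μM melatonin and the same stress, the smallest adjusted p was 0.91, that of *PIR3*, a cell wall protein, with 0.42 (SE 0.05). *TSL1* was 0.25 (SE 0.05) and the uncharacterized *YOR338W* 0.33 (SE 0.07) higher than in MelH, each with adjusted p = 1.0. The other 3 of the 6 smallest p values belonged to open reading frames that no 25MelH array measured well above background.

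The comparisons of the 3 stressed groups share their Control arrays, and their values are given side by side for a few genes. *OPT2* changed by −5.53 in 25MelH, −5.54 in H and −5.56 in MelH vs. Control, and *SIT1* by 2.81, 2.82 and 2.85. The changes of *SRX1* were 3.76, 2.82 and 3.44, beside those of *CIS1* (2.72, 1.92 and 2.67), *HSP26* (2.51, 1.75 and 2.23) and *DDR2* (2.10, 1.06 and 1.79). The list medians in the same order were 0.75, 0.70 and 0.72 for chaperones, 0.43, 0.33 and 0.39 for the proteasome, 0.45, 0.34 and 0.40 for cytosolic ribosomal proteins, −0.22, −0.32 and −0.34 for general stress genes, −1.23, −1.20 and −1.21 for the zinc regulon, and 0.54, 0.27 and 0.79 for the iron regulon. The iron median in 25MelH was the value of the uncalled *BIO5* (SE 0.72) and moved when single arrays were left out, so no difference between the stressed groups is drawn from it.

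Genes used as references in the quantitative PCR of the study served as a check. *HEM2* (0.12, adjusted p = 0.14) and *TAF10* (adjusted p = 0.34) did not pass. *ACT1*, actin, was 0.41 higher (SE 0.07, adjusted p = 0.0024), with levels of 4.69, 4.52 and 4.59 against 4.24, 4.11 and 4.21. At the edge of the calls, *PXA2* passed with 0.27 (adjusted p = 0.0498) and *LEU3* with −0.20 (adjusted p = 0.0499), which became 0.13 under quantile normalization. At that edge the arrays of *PXA2*, a subunit of a peroxisomal fatty acid transporter, overlapped between the groups (−4.12, −3.87 and −4.00 against −4.12, −4.36 and −4.32).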

How the data were processed

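RNA of 15 QA23 cultures was measured on 15 single-colour arrays, and the 3 arrays of 25MelH and the 3 of Control, grouped by their sample labels, were compared. The authors deposited 1 scanner table per array, made with Feature Extraction 12.0.1.1. Its processed signal was an intensity on a linear scale after background subtraction. A matrix of the authors' own normalized log2 values was deposited as well. Of its 15 columns, 6 equalled the scanner table of their own sample, among them those of Control and 25MelH, and were used as an alternative, and 9 equalled that of another sample and were not used.

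Control spots and flagged spots were left out, log2 signals were averaged over the 2 spots of each probe, and each array's 75th percentile was taken off. Where a gene had several probes, only the probe with the highest mean was kept, which dropped 32 of 6256 probes and left 6224 genes, 5642 of them with a symbol in the files or the RefSeq gene table. Groups were compared on their own 6 arrays with lmFit and eBayes of limma 3.58.1 under R 4.3.3, two-sided, with p adjusted by Benjamini-Hochberg across all genes and called under 0.05, and SE is the moderated standard error. No filter on dim probes was used, and the number of arrays limits the precision. On simulated data for 25MelH vs. Control with 200 of 6221 genes changed, 60% of changes of 0.5 and 96% of changes of 1 on the log2 scale were recovered, with 9 false calls. In the data a far larger share of genes was called (65.6%), and the simulated noise was independent between genes. The simulation therefore does not give the sensitivity or the error of the calls reported here.

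Gene lists and the roles of the respiratory genes were written from general knowledge, and the groups, lists and tests were chosen with earlier results of these data known, so no list was tested and counts are given beside those of all genes. Genes were named if they had one of the 10 largest rises or 10 largest falls of the called, non-overlapping genes well above background on all 6 arrays, the 4 largest bounds, the called members of a list with the largest changes (up to 6), the 6 smallest p in 25MelH vs. H or MelH, the quantitative PCR references, or the first and last called genes. Other list members were chosen for their known role after their values were seen. Alternatives were normexp background correction (offset 50), median centring, quantile normalization, spike-in scaling on 7 of 10 spike-in probes, leaving out dim probes, averaging the probes of a gene, 1 fit of 15 arrays, slide and replicate number as blocks, fits within each slide, leaving out each array, an unadjusted p and the deposited matrix. The normexp correction used the median spot signal in place of the mean signal that had been planned. A repeat of it without 6 aberrant spots was chosen after seeing the data. Promoter motifs were not searched and no sequences are shown.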

Additional observations from a re-analysis of the deposited data

How the results depend on the processing

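The count of 4081 called genes in 25MelH vs. Control (1658 higher, 2423 lower) lay between 3561 and 3924 when each array was left out in turn (1396 to 1647 higher, 2165 to 2328 lower), and of the 194 called genes named here 182 to 187 were then called in the same direction. The values of the deposited matrix gave 4089 calls. Scaling moved the split between directions. Median centring gave 2737 higher and 1545 lower, spike-in scaling 23 and 6054, and normexp correction without the 6 aberrant spots 2562 higher. Under spike-in scaling 127 of the 194 named genes were called in the same direction and 62 had the other sign. With the shift of −1.57 in the median of all genes taken off, 0 had the other sign. That 0 was fixed in advance, because this scaling moves all genes of an array by the same amount. Within slide 2, which held 1 Control and 1 25MelH array, assumed to vary like the other groups of that slide, 1122 genes were called, 287 higher and 835 lower. The replicate numbers were not treated as pairs. Same-numbered arrays of 25MelH and Control had correlations of −0.16, 0.33 and 0.22 between their deviations from the group means. Arrays of unlike number had −0.44 to 0.28. These values cannot decide whether arrays were paired. The deviations within a group sum to 0, and same-numbered arrays of these groups also shared a slide. With the replicate number as a block, 3845 genes were called (1591 higher), and 0 genes in 25MelH vs. H and in 25MelH vs. MelH.

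In 25MelH vs. H, 0 calls became 28 without dim probes (fewer genes tested and the spread fitted anew). There were 3 under median centring, 10 under normexp correction without the aberrant spots and 1003 at an unadjusted p. In 25MelH vs. MelH, 0 calls became 15 under spike-in scaling and 82 at an unadjusted p. The cause of these changes was not tested.

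The planned normexp correction gave 78 calls (30 higher, 48 lower) and 35 of the named genes in the same direction. On 25MelH replicate 2 the lowest spot minus its local background was −86049 intensity units, and the fitted background mean was −1682 with and 3.00 without the 6 such spots. Relative to the shift in the median, that correction turned these medians: proteasome −0.10, cytosolic ribosomal proteins −0.13, ribosome biogenesis −0.045, glycolysis −0.030, the sulfur pathway 0.064, ergosterol −0.10, general stress 0.59, hexose transport 0.66, and the nuclear-encoded subunits of complex IV −0.12 and of complex V −0.34. It also turned the named genes *ACT1* (−0.21), *ATP8* (0.47), *COX5A* (−0.26), *CYC7* (0.25), *FLO1* (0.015), *FRE3* (0.12), *GAD1* (0.091), *HXK2* (−0.41), *HXT2* (−0.12), *LEU3* (0.094), *MET28* (0.055), *OLI1* (−0.11), *PET100* (−0.060), *PYK2* (0.046), *QCR2* (−0.15), *SET4* (0.43), *SHM1* (−0.16), *SSE2* (0.13), *STF2* (−0.036), *TYS1* (−0.32), *XBP1* (0.61), *YOR338W* (0.52) and *ZAP1* (0.45). Without the aberrant spots it turned 0 named genes and the medians of hexose transport (0.28) and of complex V nuclear-encoded subunits (−0.0066).

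Quantile normalization turned the medians of cytosolic ribosomal proteins (−0.093), glycolysis (−0.19), the sulfur pathway (0.069) and complex V nuclear-encoded subunits (−0.081). The genes it turned were *ADH1* (−0.15), *CDC19* (−0.19), *COX5A* (−0.093), *CYC7* (0.17), *FBA1* (−0.0089), *FRE3* (0.12), *HXK2* (−0.32), *LEU3* (0.13), *OLI1* (−0.43), *PDC1* (−0.0093) and *TYS1* (−0.14). The cause was not tested.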

Other observations

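Counts of further gene groups in 25MelH vs. Control are given beside 26.6% of all genes called higher and 38.9% lower. These counts moved with the scaling, and spike-in scaling gave nearly all members as lower. Of 29 genes of peroxisomes and beta-oxidation 17 were lower and 4 higher (11 lower and 9 higher under median centring). *FAA2*, a fatty acyl-CoA synthetase, had log2 levels of −3.94, −4.14 and −4.04 in 25MelH against −2.26, −2.29 and −2.49 in Control, which do not overlap, and a difference of −1.69. Of 24 genes of fatty acid and sphingolipid synthesis 12 were lower and 7 higher (8 lower and 11 higher under median centring). *SUR2*, the sphinganine hydroxylase, fell by 1.49, whereas *FAS2*, a subunit of fatty acid synthase, rose by 0.88 and the acetyl-CoA carboxylase *ACC1* rose by 0.87. Of 34 genes of mitochondrial protein import 18 were lower and 7 higher (11 lower and 15 higher under median centring), with *TIM22*, the core of the carrier translocase, at −1.25.

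In the tricarboxylic acid and glyoxylate cycles 8 of 23 genes were higher and 8 lower. The pyruvate carboxylase *PYC1* rose by 1.25, and the citrate synthase *CIT2* (−1.68), the cytosolic malate dehydrogenase *MDH2* (−1.80) and the isocitrate lyase *ICL1* (−1.13) fell. The lysine synthesis genes *LYS20* (0.94) and *LYS2* (0.76) rose, and 8 of 19 genes of arginine and lysine synthesis were higher and 5 lower. The allantoate permease *DAL5* (−1.61) and the urea transporter *DUR3* (−1.24) fell, with 7 of 11 genes of allantoin and urea breakdown lower and 1 higher. Among 22 genes of deoxynucleotide synthesis and DNA damage 11 were lower and 4 higher (7 lower and 10 higher under median centring), with *RAD52*, of recombination, at −0.92 and *RNR1*, the large reductase subunit, at −0.61. Of 40 sporulation and meiosis genes 18 were lower and 0 higher. Only 13 of the 40 were well above background on all 6 arrays, and normexp correction without the aberrant spots turned the count to 27 higher and 4 lower.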
